A study of Homo sapiens with 8 samples.

Results

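The comparison described here sets the 5-FU-resistant line HCT-8/FU against its sensitive parent HCT-8 after the parent had been grown in medium taken from the resistant line. It asks which transcripts the resistant cells hold at a different level from parental cells that were given only what the resistant cells had left in the medium. The libraries were chosen by their sample titles alone, and 4 of the 8 libraries of the series belong to it, 2 of HCT-8/FU and 2 titled CM of HCT-8/FU, in which CM is conditioned medium and the cells are HCT-8. The latter are called CM-treated HCT-8. HCT-8 is a human ileocecal colorectal cancer line, and HCT-8/FU is a derivative of it that tolerates 5-FU (5-fluorouracil). The CM had been left on HCT-8/FU cells for 48 h before it was moved to HCT-8. The remaining groups entered the same fit and are given beside the results where they place a level. They are HCT-8 in unconditioned medium and HCT-8 in its own CM, here control-CM HCT-8. Each group had 2 replicates, and nothing in the sources used here says that these came from separate cultures, so p-values measure the spread between libraries, which may be technical. By the labels HCT-8/FU itself grew in unconditioned medium, as untreated HCT-8 did, so the groups compared differ in the cell line and in the medium, and these cannot be told apart. In bulk RNA, a change in the share of cells and a change in RNA per cell cannot be told apart either. The resistant line is a single line, which limits what can be said of resistance in general, and the sources used here do not say whether drug was present in its medium.

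5-FU is converted inside cells to fluorinated nucleotides that block thymidylate synthase, encoded by TYMS, and that enter RNA and DNA. Cells that are short of amino acids, or whose endoplasmic reticulum (ER) is loaded with unfolded protein, switch on the integrated stress response, in which phosphorylation of the translation factor eIF2 favours the transcription factor ATF4 and its targets. The unfolded protein response of the ER shares its PERK arm with this system, while its ATF6 and IRE1 arms are separate and raise chaperones such as HSPA5. These programmes are active in many secretory and colorectal cancer cells and react to the state of the culture medium.

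The HCT-8/FU libraries held 28444413 and 5804124 counts on genes, and those of CM-treated HCT-8 30050758 and 29634718. HCT-8/FU replicate 2 was therefore the shallowest of the 8, and it was also 1 of 3 libraries in which over 15% of the records were not aligned, whereas both CM-treated HCT-8 libraries lay at 3.58% and 3.91%. Replicates of each group differed by more than sampling noise and were kept apart. All 12 epithelial markers were detected in the 4 libraries, and their summed level was 9591 and 10025 CPM (counts divided by the TMM-scaled library size, the usual unit of abundance) in HCT-8/FU and 10003 and 10065 CPM in CM-treated HCT-8. EPCAM stood at 482 and 502 CPM in HCT-8/FU and at 434 and 435 CPM in CM-treated HCT-8. The 10 fibroblast markers summed to 22.6 and 18.9 CPM in HCT-8/FU and to 22.0 and 23.2 CPM in CM-treated HCT-8. The 12 immune markers summed to 4.75 and 4.68 against 5.20 and 4.83 CPM, and the 8 endothelial markers to 7.68 and 6.02 against 8.66 and 8.72 CPM. The groups overlapped in the fibroblast sum, while the immune and endothelial sums were lower in HCT-8/FU, and the part of such cells in the results was not tested. COL1A2, PDGFRA, PTPRC, CD3E, CD3D, MS4A1 and ERG were at 0 in all 4 libraries. In edgeR and in DESeq2 none of the 14 markers of these 3 lists that were tested was called, and none had an unadjusted p under 0.05.

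Of the 20305 genes tested, 566 were called, which is 2.79% of them. A call needed a Benjamini-Hochberg FDR of at most 0.05 in edgeR's quasi-likelihood test and a log2 fold change of 0.58 or more in either direction. There were 210 genes higher in HCT-8/FU (1.03% of those tested) and 356 lower (1.75%). The changes were small: the median absolute log2 fold change was 0.65 among the higher and 0.75 among the lower genes, and 80 of the 566 reached an absolute value of 1, of which 71 were lower. The other comparisons of these libraries called more genes, with 4325 when HCT-8/FU was set against HCT-8 and 2120 when CM-treated HCT-8 was. No gene that reached 5 CPM in both libraries of one group was under 0.1 CPM in both libraries of the other, in either direction, among the 12573 genes at 5 CPM in both libraries of at least one group. Every library of the comparison decided part of the calls. Without HCT-8/FU replicate 1, 128 genes were higher and 386 lower, and without HCT-8/FU replicate 2, the shallow library, 205 were higher and 251 lower. Without CM-treated HCT-8 replicate 1 the counts were 66 and 218, and without its replicate 2 they were 72 and 224. In these fits the library left alone in its group was assumed to vary like the other groups.

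The calls followed base composition. The median GC content of the exons was 38.2% in the 210 higher genes, 62.2% in the 356 lower genes and 49.0% in all tested genes. Of the 2786 tested genes under 40% GC, 147 were higher and 2 lower, and of the 2754 genes at 60% GC or more, 1 was higher and 219 lower. Across genes, the log2 fold change had a Spearman correlation of −0.53 with GC content. The genes share the same 4 libraries, so this is a description without a test. When every library was corrected for exonic GC content and length, what remained was 8 genes higher (0.0403% of 19857) and 50 lower (0.252%). Of these 58 genes, 48 had also been called without the correction, 3 of them higher and 45 lower. Such a correction takes out differences tied to composition or length without regard to where they came from. Whether a call held with the correction is therefore stated for the genes the results turn on.

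**Figure D1:**
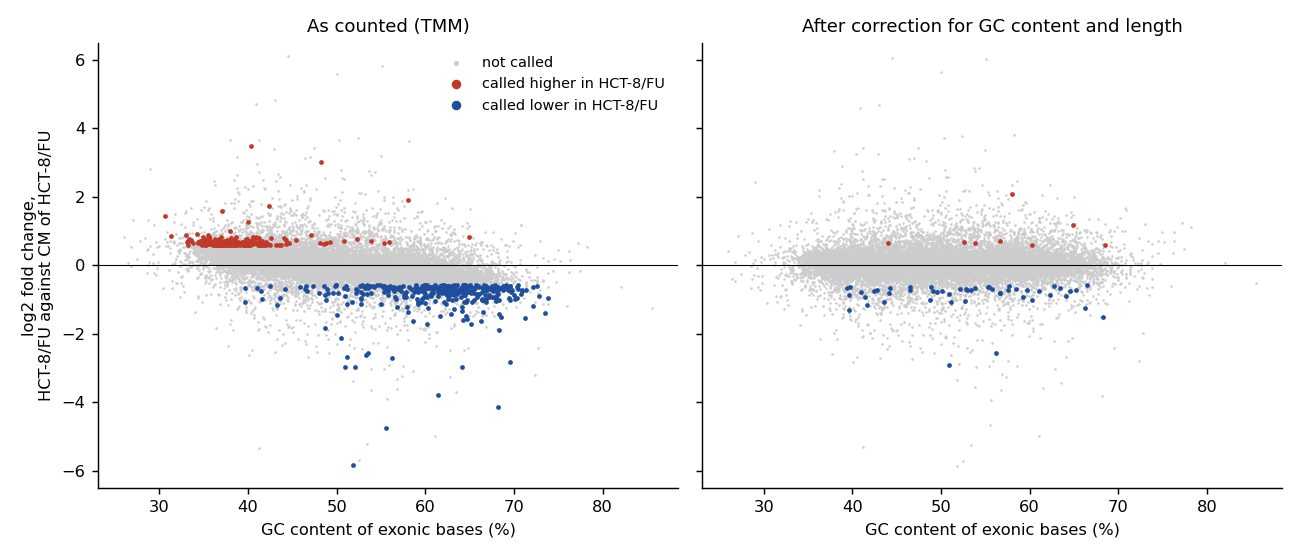
Log2 fold change of HCT-8/FU over CM-treated HCT-8 (y axis) against the GC content of a gene's exons in % (x axis), each point a gene tested in edgeR, as counted (left) and after correction for GC content and length (right). Red points are called higher and blue points called lower in HCT-8/FU: on the left the 210 red points crowd at low and the 356 blue points at high GC content, and on the right 8 and 50 remain without that slope.

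The clearest group among the genes lower in HCT-8/FU was the integrated stress response. Of its 32 tested genes, 10 were lower and none was higher, 31.2% against the 1.75% of all tested genes that were lower. They were CEBPB, DDIT3, TRIB3, CHAC1, ADM2, ATF3, SLC3A2, DDIT4, SESN2 and PPP1R15A. The median log2 fold change of the list was −0.38, against 0.02 over all tested genes, and 29 of the 32 values were below 0. With the correction, 6 of the 10 were called, all but ADM2, DDIT4, SESN2 and PPP1R15A, and the median of the list was −0.35. In 24 of the 32 genes both HCT-8/FU libraries lay below all 6 libraries of HCT-8 cells, which was the case in 17.4% of all tested genes. When single libraries were dropped in turn, 9 to 13 of the genes were lower.

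CEBPB (ENSG00000172216, chr20:50190830-50192668, plus strand) encodes C/EBP-beta, a transcription factor that is raised by ER stress and by inflammatory signals. It stood at 53.5 and 51.1 CPM in HCT-8/FU and at 164 and 162 CPM in CM-treated HCT-8, the largest difference of the list, which is −1.63 on the log2 scale (standard error 0.18, adjusted p = 0.00018) and of −1.25 with the correction. HCT-8 held 123 and 90.0 CPM and control-CM HCT-8 146 and 86.5 CPM, so the HCT-8/FU libraries were the lowest of all 8 and those of CM-treated HCT-8 the highest. The antisense transcript CEBPB-AS1 shares 8.72% of its exonic bases with other genes and moved the same way, from 44.1 and 45.5 CPM in CM-treated HCT-8 to 4.62 and 8.52 CPM in HCT-8/FU. The strand setting of the counting is unknown here, so reads of the pair cannot be fully told apart. The call of CEBPB-AS1 (log2 fold change −2.98, standard error 0.57) was lost with the correction (−2.89, adjusted p = 0.064) and without HCT-8/FU replicate 1.

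DDIT3 (ENSG00000175197, chr12:57516588-57521737, minus strand) encodes CHOP, a factor that promotes cell death under lasting ER stress. Its levels were 46.8 and 36.1 CPM in HCT-8/FU and 89.9 and 83.9 CPM in CM-treated HCT-8, against 212 and 205 CPM in HCT-8 and 101 and 100 CPM in control-CM HCT-8. The log2 fold change was −1.02 (standard error 0.10, adjusted p = 5.6e-05) and −1.01 with the correction. Exons of other genes cover 31.6% of its exonic bases, which makes its level uncertain. TRIB3, a pseudokinase target of ATF4 and CHOP, showed the same order, with 212 and 188 CPM in HCT-8/FU, 399 and 396 CPM in CM-treated HCT-8, 828 and 887 CPM in HCT-8 and 414 CPM in both libraries of control-CM HCT-8. Its log2 fold change was −0.99 (standard error 0.074, adjusted p = 9.5e-06), and −0.73 with the correction.

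CHAC1, which degrades glutathione, stood at 23.7 and 15.4 CPM in HCT-8/FU and at 37.8 and 39.96 CPM in CM-treated HCT-8. ATF3, an early stress-induced repressor, stood at 7.78 and 6.52 CPM against 14.2 and 11.7 CPM, both far below the 67.8 and 65.2 CPM of HCT-8, and its call was lost without CM-treated HCT-8 replicate 1. SLC3A2, the heavy chain of the large neutral amino acid and cystine transporters, stood at 366 and 315 CPM in HCT-8/FU and at 601 and 584 CPM in CM-treated HCT-8. The log2 fold changes of these genes were −0.90 (standard error 0.14), −0.80 (standard error 0.14) and −0.79 (standard error 0.083), and with the correction −0.62, −0.75 and −0.70. PPP1R15A, the phosphatase subunit that ends the response, was no longer called without HCT-8/FU replicate 2.

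ATF4 itself did not pass the fold threshold, with 623 and 594 CPM in HCT-8/FU and 801 and 795 CPM in CM-treated HCT-8 (log2 fold change −0.39, standard error 0.082, adjusted p = 0.0070). The asparagine synthetase gene ASNS had a value of −0.24, and the serine and one-carbon enzymes PSAT1 and MTHFD2 had −0.09 and −0.07. The amino acid transporter genes SLC7A11 and SLC38A2 had values of 0.33 and 0.37, which the correction brought to −0.01 and 0.09. None of the tRNA synthetase genes of the list was called, with values from −0.07 for GARS1 to −0.55 for WARS1.

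The neighbouring programme of ER chaperones and the unfolded protein response was examined with a list of 35 genes written after the values had been seen. Of these, 8 were lower and none was higher, 22.9% against 1.75% of all tested genes, and 19 were lower at the FDR alone. The 8 were DERL3, HYOU1, SDF2L1, CRELD2, SYVN1, HSPA5, HERPUD1 and PDIA4. The median of the list was −0.28, and −0.43 with the correction, under which HSPA5, HYOU1, CRELD2 and HERPUD1 remained called and DNAJB11 was added. The genes of this list have a median GC content of 45.0%, below that of all tested genes, so that the correction moved their median away from 0. Between 6 and 9 of the 35 were lower when 1 library was left out. DERL3 shares 77.0% of its exonic bases with other genes and is uncertain.

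HSPA5 (ENSG00000044574, chr9:125234853-125241382, minus strand) encodes BiP, the main ER chaperone. It stood at 3233 and 2957 CPM in HCT-8/FU and at 5052 and 5019 CPM in CM-treated HCT-8, against 12050 and 11478 CPM in HCT-8 and 5468 and 5351 CPM in control-CM HCT-8. The groups did not overlap, and the log2 fold change was −0.70 (standard error 0.060, adjusted p = 2.1e-05), or −0.80 with the correction. HYOU1, a larger ER chaperone of the same kind, stood at 1382 and 1288 CPM against 2411 and 2429 CPM (−0.86, standard error 0.073, adjusted p = 2.0e-05, and −0.70 with the correction). HERPUD1, which takes part in ER-associated degradation, stood at 478 and 427 CPM against 682 and 695 CPM (−0.60, standard error 0.076, and −0.74 with the correction), and was no longer called without HCT-8/FU replicate 2. CRELD2, a secreted ER stress protein, stood at 214 and 181 CPM against 356 and 350 CPM (−0.83, standard error 0.10, and −0.62 with the correction). XBP1, the splicing-activated factor of this response, had a log2 fold change of −0.17, and HSP90B1, the ER HSP90, of −0.22, and neither was called.

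The plot of 8 stress genes by library shows the order of the groups. HCT-8/FU held the lowest level in each of them and HCT-8 the highest in all but CEBPB. In the others the groups in CM lay between. In CRELD2, which is not plotted, control-CM HCT-8 replicate 1 (527 CPM) stood above both HCT-8 libraries (463 and 460 CPM). Of the 32 genes of the integrated stress response, 24 were lower in HCT-8/FU than in HCT-8 (8.12% of all tested genes were lower in that comparison), and 15 were lower in CM-treated HCT-8 than in HCT-8 (3.28% of all). Between CM-treated HCT-8 and control-CM HCT-8, none of the 32 was lower in edgeR (1.28% of all were). Of the 35 ER genes, 26, 15 and 1 were lower in these comparisons. The comparisons share libraries with each other and are set side by side only.

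**Figure D2:**
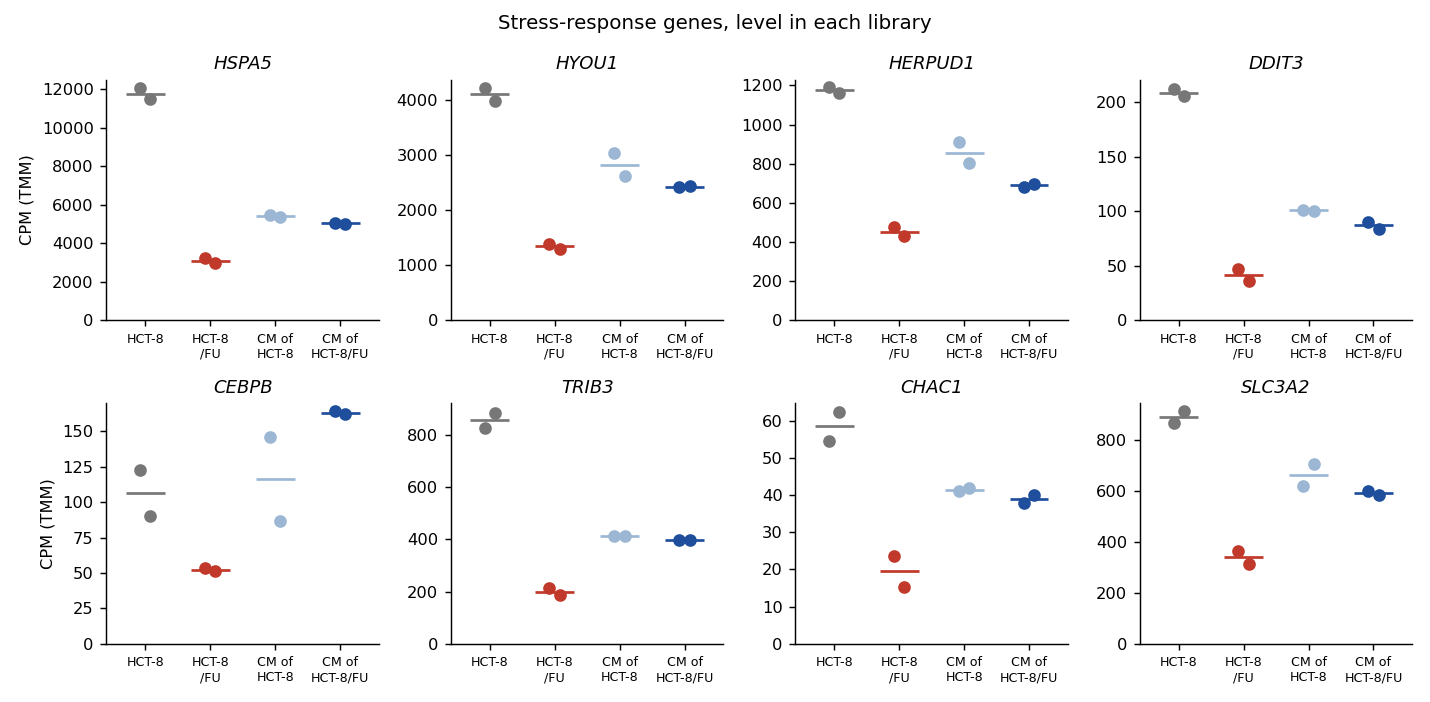
Level in CPM (y axis, from 0) of 8 genes of the integrated stress response and the ER in the 4 groups, labelled by their sample titles, where each point is a library and each bar the mean of 2. In all 8 panels both HCT-8/FU points are the lowest, and except for CEBPB both HCT-8 points are the highest.

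The sequences before the transcription start of 5 of these genes are shown because they hold a match to a motif of stress-regulated factors. The windows of DDIT3, TRIB3, CEBPB and SLC3A2 held none of the 3 motifs and are not shown, nor are those of ATF3, of which 1 holds a C/EBP-ATF core. Each is the 250 bases upstream of a RefSeq start in GRCh38.p14, read 5′ to 3′ on the strand of the gene. HSPA5 lies at chr9:125241344-125241593 (minus strand), CRELD2 at chr22:49918384-49918633 (plus), HERPUD1 at chr16:56931892-56932141 (plus), HYOU1 at chr11:119057206-119057455 (minus) and CHAC1 at chr15:40953221-40953470 (plus). Capitals mark matches, on either strand, to the ER stress response element (ERSE, CCAAT and CCACG with 9 bases between them), to ERSE-II (ATTGG and CCACG with 1 base between them) and to the core that C/EBP and ATF factors share, TGATGNAA or TTNCATCA on the other strand.
HSPA5: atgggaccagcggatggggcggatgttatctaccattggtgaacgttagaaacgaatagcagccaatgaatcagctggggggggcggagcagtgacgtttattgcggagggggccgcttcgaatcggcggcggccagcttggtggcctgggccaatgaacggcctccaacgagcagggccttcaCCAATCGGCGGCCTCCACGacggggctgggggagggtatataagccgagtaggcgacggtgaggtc
CRELD2: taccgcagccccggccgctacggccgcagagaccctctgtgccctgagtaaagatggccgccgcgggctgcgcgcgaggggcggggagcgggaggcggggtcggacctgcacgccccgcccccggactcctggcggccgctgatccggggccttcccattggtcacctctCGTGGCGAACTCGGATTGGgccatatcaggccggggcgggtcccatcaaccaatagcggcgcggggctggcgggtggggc
HERPUD1: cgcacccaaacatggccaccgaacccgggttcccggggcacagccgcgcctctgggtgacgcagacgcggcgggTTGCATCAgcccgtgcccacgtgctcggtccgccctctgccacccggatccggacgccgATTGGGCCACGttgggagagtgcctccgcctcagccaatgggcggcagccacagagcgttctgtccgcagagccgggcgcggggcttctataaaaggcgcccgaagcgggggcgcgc
HYOU1: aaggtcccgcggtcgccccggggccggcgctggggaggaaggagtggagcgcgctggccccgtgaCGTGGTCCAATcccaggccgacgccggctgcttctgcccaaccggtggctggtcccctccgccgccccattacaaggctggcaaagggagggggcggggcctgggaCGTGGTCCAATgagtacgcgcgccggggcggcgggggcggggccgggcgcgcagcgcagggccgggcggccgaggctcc
CHAC1: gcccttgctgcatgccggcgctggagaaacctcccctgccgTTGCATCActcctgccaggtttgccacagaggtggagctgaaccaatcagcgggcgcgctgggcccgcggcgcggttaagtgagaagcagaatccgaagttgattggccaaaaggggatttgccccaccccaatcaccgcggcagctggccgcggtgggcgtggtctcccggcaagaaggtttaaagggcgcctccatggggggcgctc
HSPA5 and CRELD2 each hold 1 ERSE, HYOU1 holds 2 ERSE-II matches, HERPUD1 holds 1 ERSE-II and 1 C/EBP-ATF core, and CHAC1 holds 1 such core. Over the whole 300-base windows, which add 50 bases after the start, ERSE was found in 8 of the 31 ER genes with a window and in 0.0916% of 27305 genes, and ERSE-II in 3 of the 31 and in 0.0696%. The C/EBP-ATF core was found in 9 of the 27 genes of the integrated stress response with a window (33.3%) and in 4.46% of all genes. Among the protein-coding genes called lower in HCT-8/FU, 9 of 217 held the core (4.15%), 2 held ERSE and 4 held ERSE-II. Of the called genes of the integrated stress response, the core was found in CHAC1, ATF3 and SLC3A2, in SLC3A2 within the 50 bases after the start. In that list it was also found in AARS1, ASNS, CEBPG, GARS1, JDP2 and SLC7A1, which were not called. ERSE was also found in the ER genes CALR, CANX, ERO1B, HSP90B1, PDIA6 and XBP1, which were not called either. A match describes letters in a window and not the binding of a factor.

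Of the 46 tested genes of intestinal differentiation and stem cells, 4 were lower (8.70%, against 1.75% of all tested genes) and 2 were higher (4.35%, against 1.03%) in HCT-8/FU, the list's median being −0.05. The lower genes were the gel-forming mucins MUC2, MUC5AC and MUC5B, which lie side by side on chromosome 11, and ASCL2, a stem cell factor. MUC5AC (ENSG00000215182, chr11:1157953-1201138, plus strand) stood at 17.1 and 22.4 CPM in HCT-8/FU and at 43.1 and 45.9 CPM in CM-treated HCT-8 (−1.24, standard error 0.13, adjusted p = 0.00010). MUC5B (chr11:1223066-1262172) stood at 122 and 159 CPM against 296 and 293 CPM (−1.09, standard error 0.10, adjusted p = 4.7e-05). Both were called with the correction, at −1.02 and −0.76, and in every fit that left out a library. MUC2 stood at 2.13 and 1.00 CPM against 5.58 and 4.70 CPM, and was not called with the correction (−1.27, adjusted p = 0.098) or without CM-treated HCT-8 replicate 1. In untreated HCT-8, MUC5AC stood at 35.0 and 36.4 CPM and MUC5B at 266 and 284 CPM, above HCT-8/FU in both cases. The cell surface mucins were not called, with a log2 fold change of −0.11 for MUC1 and 0.02 for MUC13.

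The higher genes of that list were KRT20, a keratin of differentiated enterocytes, and the nuclear receptor gene HNF4G. KRT20 stood at 12.1 and 16.9 CPM in HCT-8/FU and at 9.01 and 7.82 CPM in CM-treated HCT-8 (0.73, standard error 0.20, adjusted p = 0.024). HNF4G stood at 25.2 and 24.4 CPM against 16.7 and 14.3 CPM (0.68, standard error 0.18). Neither was called with the correction (0.69 for KRT20 and 0.43 for HNF4G), without HCT-8/FU replicate 2 or without either CM-treated HCT-8 library, and HNF4G also not without HCT-8/FU replicate 1. ASCL2 was not called with the correction or without any 1 library of the comparison. The stem cell gene LGR5 (0.44) and the lineage factors CDX2 (−0.08) and HNF4A (−0.01) did not pass both thresholds.

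AP-1 and immediate early genes, which answer growth factor signalling within minutes, were lower in 9 of 30 cases (against 1.75% of all), with none higher and a median of −0.42. They were FOSB, DUSP5, MAFF, BTG1, KLF2, DUSP1, IER5, EGR1 and NR4A1. DUSP5, a phosphatase that switches off ERK, stood at 64.6 and 59.2 CPM in HCT-8/FU and at 108 and 107 CPM in CM-treated HCT-8 (−0.78, standard error 0.079, adjusted p = 7.3e-05). FOSB, an AP-1 subunit, stood at 1.89 and 1.00 CPM against 4.17 and 3.5999 CPM, and EGR1, a zinc finger factor, at 17.6 and 22.7 CPM against 29.4 and 29.1 CPM. FOS (−0.39) and JUN (−0.39) were not called. With the correction, DUSP5 and the antiproliferative gene BTG1 were the 2 called genes of the list, and its median was −0.23. The count was 3 without HCT-8/FU replicate 1, 6 without its replicate 2, and 5 and 4 without CM-treated HCT-8 replicate 1 and 2, and 5 in DESeq2 with 4 groups.

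Among the NRF2 and p53 targets few genes were called. HMOX1, the heme oxygenase induced by oxidative stress, stood at 14.3 and 11.4 CPM in HCT-8/FU, 25.9 and 24.0 CPM in CM-treated HCT-8 and 53.6 and 54.0 CPM in HCT-8 (−0.90, standard error 0.12, adjusted p = 0.00064, and −0.69 with the correction). It and SRXN1 were the 2 called of the 31 NRF2 targets (6.45% lower, against 1.75% of all tested genes), while NQO1, a standard marker of that pathway, had a log2 fold change of 0.01. SRXN1 shares 90.7% of its exonic bases with other genes, and its call was lost with the correction, where its value was −1.01 against −1.09 as counted, and without any 1 library of the comparison. Of the 28 p53 targets 7.14% were lower and 3.57% higher, against 1.75% and 1.03% of all tested genes. The secreted stress cytokine GDF15 (333 and 301 CPM against 564 and 573 CPM) and the cell death gene BBC3 (24.6 and 21.9 CPM against 44.4 and 42.0 CPM) were lower, and SESN1, a sestrin, was higher (14.5 and 18.7 CPM against 9.49 and 8.95 CPM). None of these 3 was called with the correction (−0.57, −0.53 and 0.61), and SESN1 also not without HCT-8/FU replicate 2 or either CM-treated HCT-8 library. CDKN1A, the best known target of p53, had a value of −0.15. PIM3, a survival kinase (85.1 and 80.7 CPM against 165 and 164 CPM), the lysosomal gene LAMP3 (33.6 and 31.4 CPM against 53.2 and 53.5 CPM) and GTPBP2 (80.9 and 79.2 CPM against 135 and 145 CPM) were called with and without the correction. AREG, a ligand of the EGF receptor, just missed the fold threshold as counted (−0.579) and was called with the correction (−0.72). PIM3, LAMP3, GTPBP2 and AREG were chosen after their values were seen.

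By size, the rule for leading genes gave 12 lower genes that were called both with and without the correction. Besides CEBPB, MUC5AC, MUC5B and DDIT3 they were TXNDC5, C1orf122, FLNC, BLOC1S4, MMP13, NXPH4, ECI1 and MFSD12. TXNDC5, a protein disulfide isomerase gene, had the largest difference, with 2.53 and 2.67 CPM in HCT-8/FU and 19.8 and 20.9 CPM in CM-treated HCT-8 (−2.99, standard error 0.38, adjusted p = 0.00037). Its level is uncertain, since 61.1% of its exonic bases are shared with another gene. In HCT-8 it stood at 3.03 and 2.69 CPM, near HCT-8/FU, and in control-CM HCT-8 at 9.32 and 2.75 CPM, so the group in CM-treated HCT-8 stood apart from the rest. FLNC, filamin C, which crosslinks actin, stood at 35.3 and 31.6 CPM in HCT-8/FU, 75.6 and 73.4 CPM in CM-treated HCT-8 and 130 and 142 CPM in HCT-8 (−1.13, standard error 0.090, adjusted p = 1.2e-05). MMP13, a collagenase, stood at 8.51 and 5.35 CPM against 15.01 and 16.6 CPM, and the correction widened its difference from −1.06 to −1.31. ECI1, a mitochondrial enzyme that breaks down unsaturated fatty acids, stood at 23.0 and 27.2 CPM against 48.5 and 53.2 CPM. MFSD12, a gene of lysosomal cysteine import, stood at 79.8 and 75.0 CPM against 158 and 152 CPM. NXPH4 stood at 30.6 and 21.6 CPM against 53.1 and 61.3 CPM, and C1orf122 at 20.9 and 13.4 CPM against 42.8 and 43.0 CPM. BLOC1S4 (5.35 and 6.52 CPM against 12.6 and 12.5 CPM) was not called without HCT-8/FU replicate 1. C1orf122 and MFSD12 share 23.8% and 23.9% of their exonic bases with other genes.

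Genes higher in HCT-8/FU were led by cell division. Of the 38 tested mitosis genes, 7 were higher (18.4% against the 1.03% of all tested genes) and none was lower, and all 38 values were above 0, with a median log2 fold change of 0.42. The 7 were MKI67, TTK, ECT2, ANLN, ASPM, SMC4 and CENPF. MKI67, the proliferation marker Ki-67, stood at 356 and 397 CPM in HCT-8/FU and at 237 CPM in both libraries of CM-treated HCT-8, against 86.0 and 84.2 CPM in HCT-8 and 119 and 78.8 CPM in control-CM HCT-8 (0.66, standard error 0.13, adjusted p = 0.0044, and 0.65 with the correction). TTK, a spindle checkpoint kinase, stood at 30.4 and 35.3 CPM against 21.5 and 19.6 CPM (0.66, standard error 0.16). It was not called with the correction or without any 1 library of the comparison. PLK1 (0.02), AURKB (0.04) and CCNB1 (0.27), which drive entry into and passage through mitosis, were not called. With the correction none of the 38 was called in edgeR, 19 were higher at an unadjusted p under 0.05, and the median was 0.28. The genes of the list have a median GC content of 41.5%. Without HCT-8/FU replicate 1 all of the 7 but MKI67 lost their call, so the genes counted below are not always the same. The count of 7 was also unsteady: dropping HCT-8/FU replicate 1 gave 6 and dropping its replicate 2 gave 5, and it was 1 without CM-treated HCT-8 replicate 1, 2 without its replicate 2, 3 without HCT-8 replicate 2, 1 with a term for poorly aligned libraries, 3 in DESeq2 with the groups compared only, 3 with no filter on low counts, 11 in DESeq2 with 4 groups and 13 with DESeq2's size factors.

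In the comparison with untreated HCT-8, 27 of the 38 mitosis genes were higher in HCT-8/FU (13.2% of all tested genes were) and 22 in CM-treated HCT-8 (7.16% of all). Against control-CM HCT-8, 17 were higher in CM-treated HCT-8 (7.97% of all). The level of CM-treated HCT-8 therefore lay between those of HCT-8 and HCT-8/FU for MKI67, TTK and the other 5 called mitosis genes.

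DNA replication genes gave 2 higher genes of 38 (5.26%, against 1.03% of all tested genes), the kinase gene CDC7 and the polymerase subunit gene POLE2, and 35 of the 38 values were above 0 with a median of 0.23. CDC7 stood at 49.3 and 53.3 CPM in HCT-8/FU and at 31.9 and 36.1 CPM in CM-treated HCT-8. POLE2 stood at 9.67 and 10.5 CPM against 6.13 and 6.81 CPM. Neither was called with the correction. Each lost its call without any of several libraries, CDC7 (log2 fold change 0.585, at the threshold) without any HCT-8 or control-CM HCT-8 library, HCT-8/FU replicate 2 or CM-treated HCT-8 replicate 1, and POLE2 (0.63) without HCT-8 replicate 2 or any library of the comparison.

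**Figure D3:**
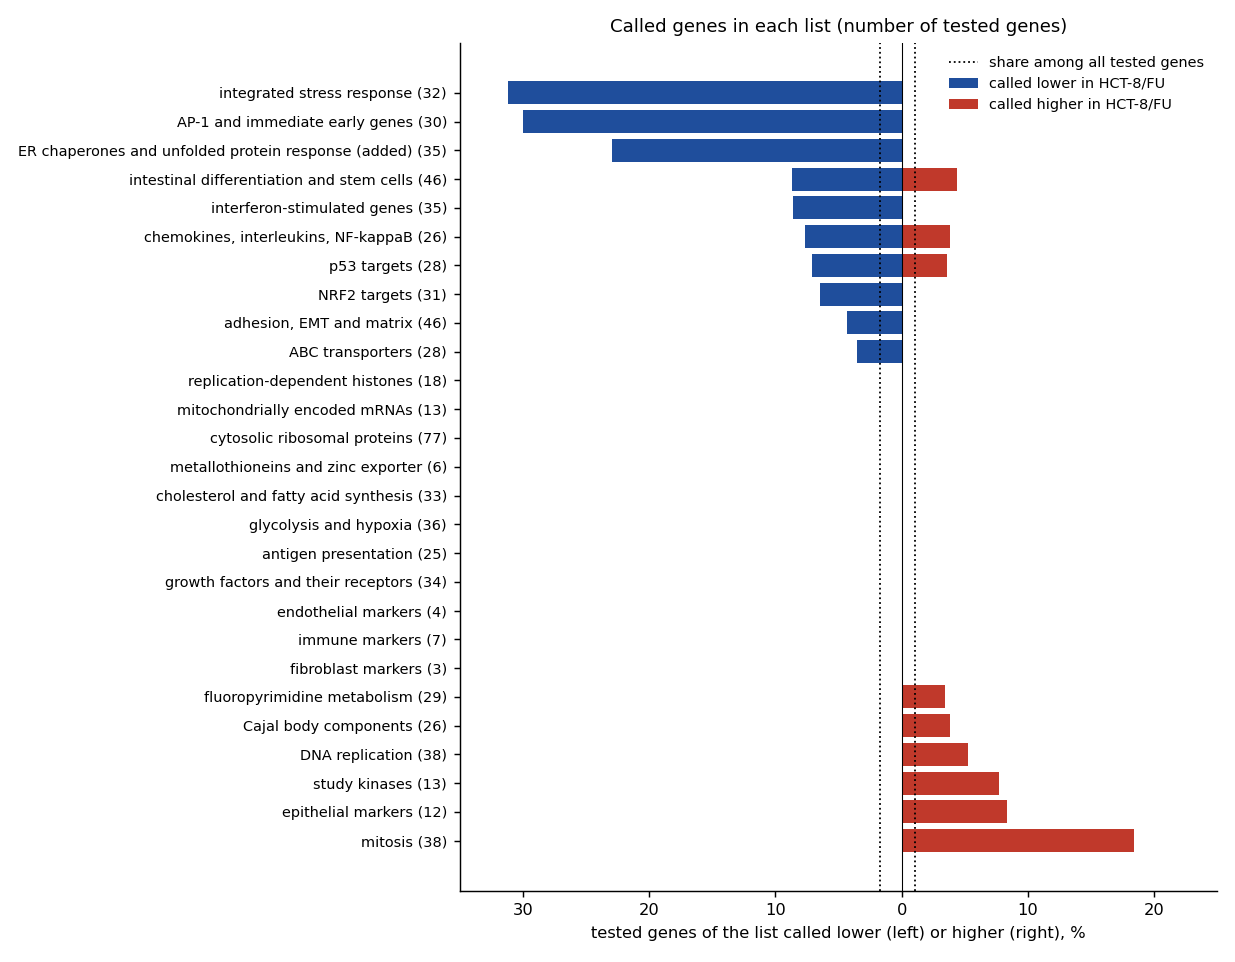
Share in % of each list's tested genes that were called lower (blue, left) or higher (red, right) in HCT-8/FU than in CM-treated HCT-8, with the number of tested genes in brackets and dotted lines at the shares of all tested genes, 1.75% and 1.03%. The integrated stress response (31.2%), AP-1 and immediate early genes (9 of 30) and the added ER list (22.9%) reach furthest to the left, and mitosis (18.4%) to the right.

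The rule for leading genes, which asks for a call with the correction as well, left 1 higher gene, FMN1. It encodes formin 1, which nucleates actin filaments. FMN1 (ENSG00000248905, chr15:32765544-33194714, minus strand) stood at 30.3 and 32.1 CPM in HCT-8/FU and at 17.6 and 18.2 CPM in CM-treated HCT-8, and was 8.29 and 9.79 CPM in HCT-8 (0.79, standard error 0.13, adjusted p = 0.0017, and 0.65 with the correction). With the correction and the replicate block together FMN1 was no longer called. A further pair of protein-coding genes was called higher only with the correction. They were ID2, an inhibitor of differentiation factors (193 and 221 CPM against 139 and 141 CPM, 0.56 as counted and 0.67 with the correction), and ALDH3A1, an aldehyde dehydrogenase (215 and 239 CPM against 183 and 182 CPM, 0.31 and 0.59). The non-coding 7SK RNA, which holds the elongation factor P-TEFb inactive, was counted on the gene at chr6:52995620-52995950. It stood at 9.54 and 6.02 CPM in HCT-8/FU, 2.18 and 2.17 CPM in CM-treated HCT-8, 1.05 and 1.12 CPM in HCT-8 and 2.65 and 3.28 CPM in control-CM HCT-8 (1.90, standard error 0.27, adjusted p = 0.00086, and 2.09 with the correction). It has no poly(A) tail and the libraries were made with mRNA capture beads, and copies of 7SK elsewhere in the genome make its level uncertain.

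The largest difference upward among called protein-coding genes of at least 5 CPM on average was that of CXCL5, a chemokine that draws neutrophils. Its level was 9.67 and 30.9 CPM in HCT-8/FU, 6.00 and 6.39 CPM in CM-treated HCT-8, 1.97 and 1.36 CPM in HCT-8 and 7.71 and 4.78 CPM in control-CM HCT-8. HCT-8/FU replicate 2 stood far above replicate 1, and the difference, 1.59 on the log2 scale (standard error 0.39, adjusted p = 0.015), was not called without that library, without either CM-treated HCT-8 library, in DESeq2 with the groups compared only, or with the correction (1.35). The next in size were PCDHB13, ZBTB41, C18orf54, MANEA and PUS7L, with log2 fold changes between 0.84 and 0.89, and none of them was called with the correction. The corrected value of PCDHB13 was as large (0.89), and those of the others lay between 0.44 and 0.55. Besides, PCDHB13 was not called without any 1 library of the comparison, C18orf54 without HCT-8/FU replicate 1 or either CM-treated HCT-8 library, PUS7L without HCT-8/FU replicate 2 or either CM-treated HCT-8 library, and MANEA without CM-treated HCT-8 replicate 1. NFKB2 (−0.66) and RELB (−0.59), subunits of the noncanonical NF-kappaB pathway, were the lower genes of the 26 tested chemokine and NF-kappaB genes. They are 7.69% of that list, against 1.75% of all tested genes, and CXCL5 as its higher gene is 3.85%, against 1.03%. Neither NFKB2 nor RELB was called with the correction. NFKB2 also lost its call without HCT-8/FU replicate 2, and RELB without HCT-8/FU replicate 1 or either CM-treated HCT-8 library.

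**Figure D4:**
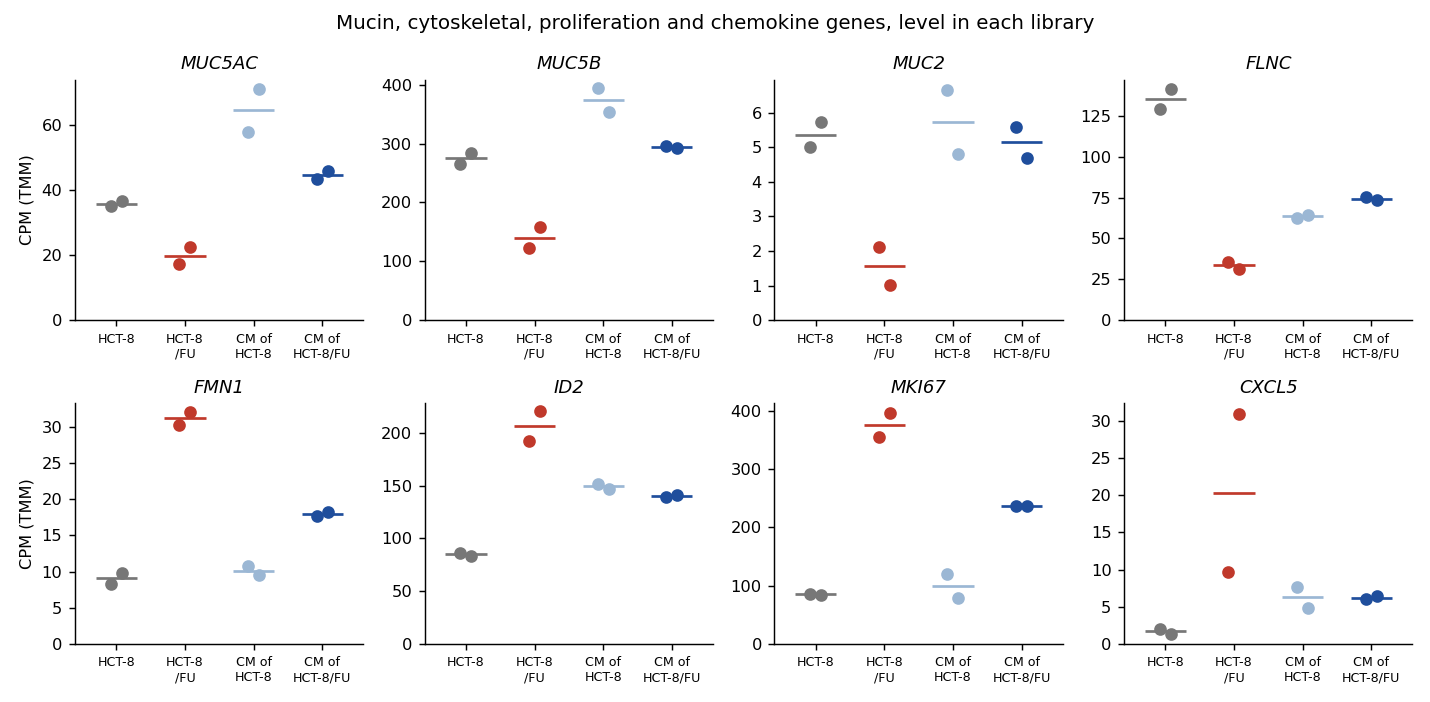
Level in CPM (y axis, from 0) of 8 further genes in the 4 groups, labelled by their sample titles, each point a library and each bar the mean of 2. MUC5AC, MUC5B, MUC2 and FLNC are lowest in HCT-8/FU, FMN1, ID2 and MKI67 are highest there, and the CXCL5 points of HCT-8/FU lie at 9.67 and 30.9 CPM.

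The genes that act on 5-FU itself differed little. Of the 29 tested genes of fluoropyrimidine and thymidylate metabolism, RRM2 was higher (3.45%, against 1.03% of all tested genes). None was lower (1.75% of all were), and the median log2 fold change was −0.11, which the correction brought to 0.07. At an unadjusted p under 0.05 in edgeR, 6 were higher and 5 lower as counted, and 8 and 0 with the correction. RRM2, the small subunit of ribonucleotide reductase, stood at 147 and 206 CPM in HCT-8/FU, 115 and 108 CPM in CM-treated HCT-8 and 62.1 and 52.9 CPM in HCT-8 (0.65, standard error 0.12, adjusted p = 0.0039). It was not called with the correction (0.66, adjusted p = 0.061), with the term for poorly aligned libraries or without HCT-8/FU replicate 2. TYMS stood at 87.2 and 99.8 CPM in HCT-8/FU and at 78.1 and 76.2 CPM in CM-treated HCT-8 (0.26, standard error 0.090, adjusted p = 0.068). In HCT-8 it stood at 45.8 and 43.7 CPM, and in control-CM HCT-8 at 79.9 and 89.1 CPM. It shares 47.9% of its exonic bases with other genes. The log2 fold change of UMPS, which activates 5-FU, was 0.20 (standard error 0.12), that of the thymidine kinase gene TK1 0.04 (standard error 0.091) and that of the thymidine phosphorylase gene TYMP, at 1.00 to 2.05 CPM, −0.46 (standard error 0.46). DPYD, which degrades 5-FU, was at or under 0.167 CPM in all 8 libraries and was not tested.

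Drug efflux gave 1 call among 28 ABC transporters (3.57%, near the 1.75% of all tested genes), the cholesterol exporter gene ABCG1 (−0.61, both HCT-8/FU libraries being lower), which was lost with the correction and without any 1 library of the comparison. ABCB1, which encodes P-glycoprotein, had a value of 0.22 (standard error 0.091, adjusted p = 0.13), ABCC1 of −0.30 and ABCG2 of −0.13.

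Among the 13 kinase-related genes that the study examined, which it had chosen on these samples, PKN2 was higher and 12 were not called. That is 7.69% higher, against 1.03% of all tested genes. All 13 values were above 0, with a median of 0.41 that the correction brought to 0.18. At the FDR alone 10 were higher, as were 1241 of all 20305 tested genes. The median GC content of the list is 39.0%. UHMK1 is a kinase that binds a family of RNA-processing proteins. It stood at 285 and 286 CPM in HCT-8/FU and at 205 and 203 CPM in CM-treated HCT-8. In HCT-8 it stood at 119 and 135 CPM, and in control-CM HCT-8 at 111 and 122 CPM. Its log2 fold change was 0.49 (standard error 0.078, adjusted p = 0.0017), under the fold threshold, and 0.18 (adjusted p = 0.55) with the correction. PKN2 (108 and 103 CPM against 72.7 and 67.4 CPM, 0.59) kept its call neither with the correction nor without HCT-8/FU replicate 1, HCT-8 replicate 2 or either CM-treated HCT-8 library. Of 26 Cajal body components, 1 was higher (3.85%, against 1.03% of all tested genes). It was NPAT, a regulator of histone transcription (38.4 and 35.6 CPM against 23.5 and 25.7 CPM, 0.60), which lost its call with the correction and without the same libraries as PKN2. COIL, the coilin gene, had a value of 0.20 (standard error 0.15). None of the 18 tested histone genes was called in edgeR or DESeq2, and 2 were higher at an unadjusted p under 0.05.

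Of the 35 interferon-stimulated genes, IRF7 (−0.86), ISG20 (−0.61) and IFI27 (−0.59) were lower, and of the 46 genes of adhesion and matrix, PLAUR (−0.62) and LAMA5 (−0.59) were lower. These are 8.57% and 4.35% of the lists, against 1.75% of all tested genes. None of these 5 was called with the correction. IRF7 was called in every fit that left out a library, ISG20 was not called without any 1 library of the comparison, and IFI27, PLAUR and LAMA5 were not called without HCT-8/FU replicate 2. IFI27 and LAMA5 were also not called with DESeq2's size factors. No gene was called among the growth factors and their receptors (34 tested), antigen presentation (25), glycolysis and hypoxia (36), cholesterol and fatty acid synthesis (33), metallothioneins (6), cytosolic ribosomal proteins (77) and mitochondrially encoded mRNAs (13). AREG, at the fold threshold, was called lower with the correction, in DESeq2 with the groups compared only and in most other alternatives, and DESeq2 called no other gene of these lists. At an unadjusted p under 0.05 in edgeR, 4 growth factor genes were higher and 7 lower, 1 and 6 of antigen presentation, 2 and 8 of glycolysis, 8 and 3 of cholesterol synthesis, 2 and 0 metallothioneins, 6 and 7 ribosomal proteins and 1 and 0 mitochondrial mRNAs.

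**Figure D5:**
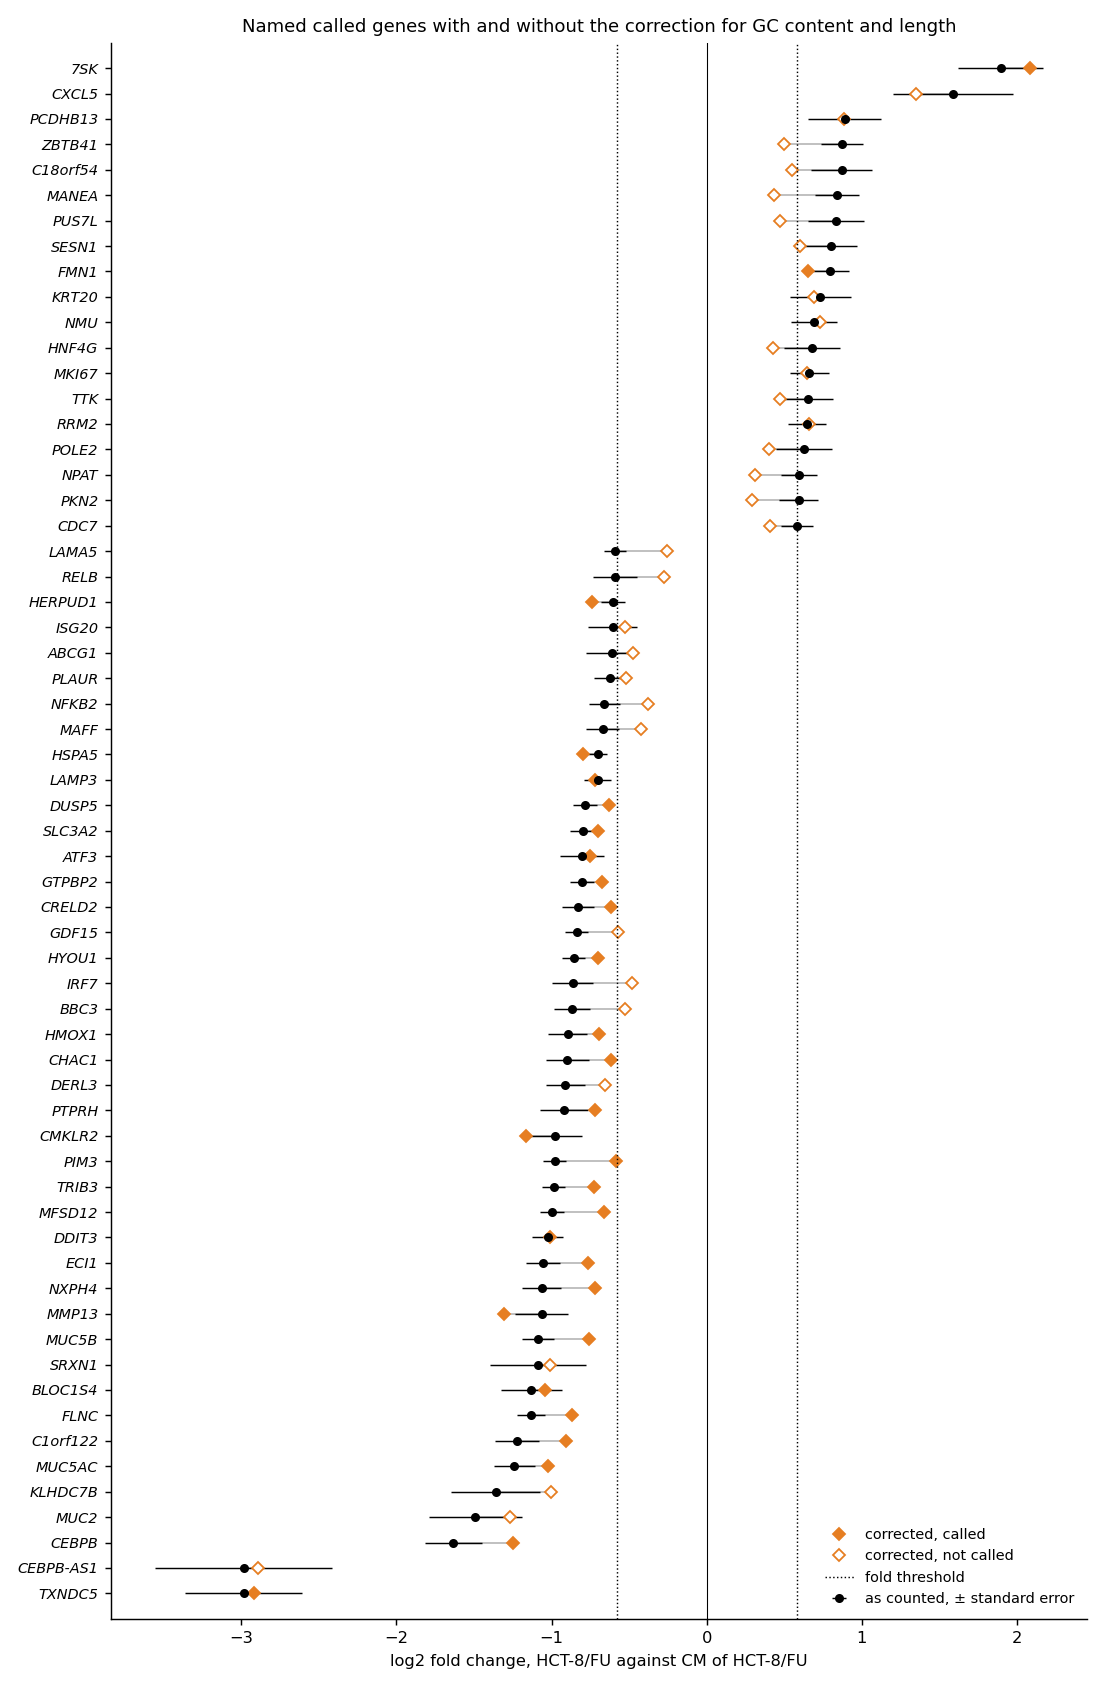
Log2 fold change (x axis) of 61 named genes called between HCT-8/FU and CM-treated HCT-8, as counted (black, ± standard error) and after correction for GC content and length (diamonds, filled where called). Other called list members named in the text, such as ADM2, EGR1 and CENPF, are not plotted, and all of those but BTG1 lost their call with the correction. With the correction 53 of the 61 lie nearer to 0 and 8 further from it, and 29 remain called, among them FMN1 and 7SK as the 2 higher genes.

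Position along the chromosomes added little. Of 265 stretches of 10 Mb with at least 20 tested genes, the median log2 fold change lay between −0.47 and 0.41 as counted and between −0.14 and 0.20 with the correction, and none reached the fold threshold. The lowest corrected median was that of chromosome 22 from 50 Mb (−0.14, 42 genes), and the highest that of chromosome 2 from 150 Mb (0.20, 31 genes). Across the stretches, the median as counted had a Spearman correlation of −0.93 with the median GC content, which neighbouring genes share.

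Both HCT-8/FU libraries lay above all 6 libraries of HCT-8 cells in 3607 genes (17.8% of those tested) and below all 6 in 3538 (17.4%). Of the 210 genes higher in HCT-8/FU than in CM-treated HCT-8, 206 lay above all 6, and of the 356 lower genes 285 lay below all 6. The called genes were chosen on 4 of these 8 libraries, so this is a description. In the 71 other lower genes, at least 1 library of HCT-8 cells reached down to the level of HCT-8/FU, as in ASCL2, which stood at 11.5 and 9.86 CPM in HCT-8/FU and at 7.77 and 5.14 CPM in HCT-8.

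The response of HCT-8/FU against HCT-8 was also set against the response of HCT-8 to CM-treated HCT-8 over control-CM HCT-8. In this difference of differences 1561 genes were called (7.69% of those tested), 720 above and 841 below 0, and with the correction 1340. It equals the main comparison plus the difference between control-CM HCT-8 and HCT-8, so it is no independent evidence, and it moves with whatever CM of any kind did to HCT-8. Of the 32 genes of the integrated stress response, 22 were called below 0 here and none above. Of the 35 genes of the ER list, 23 were called below 0. Among all 20305 tested genes, 841 were. DDIT3 had a value of −2.07, HSPA5 of −1.82 and TRIB3 of −2.04, larger in size than in the main comparison. CEBPB had −1.51, close to its −1.63 there. TYMS (1.19) and TK1 (1.11) were called, whereas UHMK1 (0.36, adjusted p = 0.052) was not.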

How the data were processed

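The authors captured mRNA on beads, sequenced pairs of 150-base reads, aligned them to GRCh38 with HISAT2 and counted them per gene with HTSeq 0.11.2 on Ensembl genes. SAMtools 1.18 and DESeq2 1.30.0 also stand in the submitters' processing notes. The deposited values used here are raw counts of reads for 64253 genes in each of 8 libraries, without normalization. The deposited DESeq2 tables hold the authors' own comparisons and were not used. The strand setting of the counting is unknown here. The study names RPMI as medium and the labels name Ham's medium. HTSeq's 5 summary lines, which name no gene, took 59.2% to 70.3% of the records and stayed out of library sizes.

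Groups and replicate numbers came from the sample titles. Counts were fitted with edgeR 4.0.16 in R 4.3.3: TMM with HCT-8 replicate 2 as reference, filterByExpr, means of the 4 groups over all 8 libraries, the quasi-likelihood test and Benjamini-Hochberg adjustment over all tested genes. Standard errors were derived from the log2 fold changes and their F statistics (size over root F). Positions, exonic lengths, GC contents and shared exonic bases came from GENCODE 44 (same build), which held 56105 of the identifiers. The correction subtracts a per-library spline (5 degrees of freedom) on GC content and log length. The fits were tested on simulated data. Promoter windows came from RefSeq (GRCh38.p14).

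Named genes are the 12 leading protein-coding genes per direction (called with and without the correction, at least 5 CPM on average, groups not overlapping), up to 2 called members per list and direction, the 4 leading genes per direction in the difference of differences, and 7 genes fixed by name. Genes named beyond this rule were chosen after their values were seen: the other called list members, list members named as not called, 7SK, ID2, ALDH3A1, CEBPB-AS1, PIM3, LAMP3, GTPBP2, AREG and the 6 largest higher genes. The members and lists were chosen with earlier results of these data known, and the ER list after the values were seen. Alternatives were another scaling, other filters, DESeq2 1.42.0, the compared groups alone, a replicate block, the FDR alone, the correction, a term marking the 3 libraries in which more than 15% of records had no alignment, another TMM reference and leaving out each library. The depth per gene sets the precision. 0 columns of values per sample were left unused. Some items are not reported here.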

Additional observations from a re-analysis of the deposited data

Results flagged for a closer look

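The difference between the contrast of the lines (HCT-8/FU over HCT-8) and the contrast of the media (CM-treated over control-CM HCT-8) was tested for each gene as an interaction in edgeR's quasi-likelihood test, and 1561 genes were called. The leading genes above 0 were CXCL5, with a log2 difference of 3.55 (adjusted p = 0.0020), NMU with 2.03 (adjusted p = 4.6e-05), FHL1 with 1.99 (adjusted p = 0.0011) and UHRF1 with 1.95 (adjusted p = 4.2e-06). Those below 0 were KLHDC7B with −3.48 (adjusted p = 3.6e-05), CMKLR2 with −2.76 (adjusted p = 3.1e-06), ATF3 with −2.76 (adjusted p = 6.0e-07) and PTPRH with −2.31 (adjusted p = 6.1e-06). Groups of 2 libraries are too small for a single library to be singled out by its distance from the others.

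NMU, a gut neuropeptide gene, stood at 22.0 and 22.9 CPM in HCT-8/FU, 13.2 and 14.6 CPM in CM-treated HCT-8, 14.5 and 14.2 CPM in control-CM HCT-8 and 4.48 and 6.24 CPM in HCT-8. UHRF1, which maintains DNA methylation, stood at 80.4 and 98.6 CPM, 70.8 and 63.0 CPM, 68.0 and 79.1 CPM, and 22.8 and 26.7 CPM in the same groups. FHL1, a LIM domain gene, stood at 6.91 and 6.35 CPM in HCT-8/FU and at 1.58 and 1.98 CPM in HCT-8. KLHDC7B stood at 3.62 and 1.17 CPM in HCT-8/FU, 24.5 and 31.4 CPM in HCT-8, and between 5.50 and 8.17 CPM in the groups in CM. CMKLR2, a chemerin receptor gene, stood at 6.31 and 4.35 CPM in HCT-8/FU and at 37.9 and 43.0 CPM in HCT-8. PTPRH, a receptor phosphatase gene, stood at 7.94 and 8.36 CPM in HCT-8/FU and at 34.8 and 43.8 CPM in HCT-8. In all 8 genes HCT-8 stood at 1 end of the groups, HCT-8/FU at the other end, and all 4 libraries in CM lay between them. The genes were chosen for a large difference of differences and for HCT-8/FU not overlapping CM-treated HCT-8. That choice favours this order, which is therefore a description only.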

How the results depend on the processing

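Of the 566 calls, most ended with the correction for GC content and length, under which 98 genes passed the FDR alone against 2587 without it. In 53 of the 61 plotted genes the value moved nearer to 0. Some calls ended with little change in value. RRM2 had 0.65 as counted and 0.66 corrected (standard errors 0.12 and 0.14), and MKI67 0.66 and 0.65 (0.13 and 0.15). With the GC content and length correction 8 genes were higher and 50 lower, and with this correction and the replicate block 4 and 47. The FDR alone gave 1241 and 1346, and 2350 genes in the difference of differences. Leaving out 1 library at a time gave 66 to 279 higher genes, 218 to 432 lower genes and 1076 to 2179 genes in the difference of differences, the lowest counts of the main comparison coming without CM-treated HCT-8 replicate 1. The replicate block gave 181 higher and 340 lower genes, and 1523 in the difference of differences. The deviations of same-numbered libraries of the compared groups had a correlation of 0.0013. Over all pairs of groups it lay between −0.12 (HCT-8/FU with control-CM HCT-8) and 0.13 (HCT-8 with control-CM HCT-8). Whether same-numbered libraries share a batch or a culture cannot be told from such correlations. Without a filter on low counts 182 genes were higher and 463 lower. DESeq2 with 4 groups called 219 and 262, and with the groups compared only 163 and 354. DESeq2's size factors gave 270 and 308, the compared groups alone in edgeR 261 and 469, the term for poorly aligned libraries 222 and 372, and another TMM reference 247 and 325. The causes were not tested. Of the 56 called genes that were named for the main comparison, 26 kept their call with the correction, between 38 and 55 when 1 library was left out, and none changed direction in these fits. These 56 leave out ATF3 and the called list members that are not plotted, such as CENPF, ANLN and NR4A1. Of those list members, all but BTG1 lost their call with the correction, and CENPF and NR4A1 also with the replicate block alone. The shallowest library, HCT-8/FU replicate 2, limits the genes of few counts most.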
